A study of Mus musculus with 22 samples.

Results

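The 10 genes described here are members of the circadian clock and of its direct output in mouse kidney cortex: Per1, Per2, Per3, Nr1d1, Nr1d2, Bhlhe41, Dbp and Tef, called here the negative limb and output genes, and Arntl and Npas2, the positive limb. They were chosen by name, with earlier results of these data known, and all 10 were found among the 16556 genes of the count table. The study measured polyadenylated RNA of kidney cortex from male C57BL/6J mice in 22 libraries, made with a kit that reads the 3′ ends of transcripts. Its purpose, as far as the labels state it, was to profile cortex lacking carnitine acetyltransferase (Crat), a mitochondrial enzyme that buffers acetyl-CoA, in the proximal tubule. Pt-CrAT mice carry the deletion under Cre driven by the Ggt promoter, and fl/fl mice are the controls, with no Cre promoter given. The 6 groups were 3 fl/fl and 3 Pt-CrAT libraries at 12 months with LFD in their titles, 3 and 3 at 15 months on chow, and 5 and 5 at 24 months on chow. Age and diet change together between the 12-month libraries and the others, so their levels are given side by side and not tested against each other. The test of whether the genotype difference varied among the 3 settings did use the 12-month libraries. Age and diet cannot be told apart in it. Each library is named by its title. The labels do not say that the libraries came from separate animals, so p-values measure the spread between these libraries.

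The mammalian clock is a transcriptional feedback loop. Arntl (BMAL1) pairs with Clock or its paralogue Npas2 and activates genes with E-boxes, among them the Per and Cry genes, whose proteins inhibit that activation, and Nr1d1 and Nr1d2, whose proteins repress Arntl through ROR elements. Dbp and Tef are transcription factors that carry the rhythm onward through D-boxes, and Bhlhe41 is an E-box repressor. In kidney the loop is known for its hold on tubular transport, and its genes rise and fall over the day in opposite phases. The hour of sampling is not in the labels, so a difference between groups in genotype or age and a difference in the hour at which the tissue was taken cannot be told apart.

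The starts of these genes hold the elements named above in part. RefSeq start-site windows of 250 bases before and 50 after the start (GRCm38.p6) were found for 9 of the 10 members, in 12 windows, and were searched on both strands for the E-box CACGTG, the E-prime box CACGTT, the D-box TTATGTAA, the ROR elements TAGGTCA and TGGGTCA and the cAMP response element TGACGTCA. Among all 32851 windows, 7.15% held the E-box, 4.68% the E-prime box, 0.938% the D-box, 2.61% TAGGTCA, 3.98% TGGGTCA and 1.79% the cAMP response element. A first search used the 250 bases before the start alone and the looser ROR letters TNGGTCA, found in 9.19% of such windows. It matched 2 places upstream of Arntl (TTGGTCA and TCGGTCA), 1 in Per3 and 1 in Tef. The letters were narrowed and the window widened after those matches had been seen, with the ROR element that is known at Arntl in mind, so the Arntl match below is no independent observation. The E-box and D-box matches below were found by both searches. Printed below, 5′ to 3′ on the strand of the gene and with the matches in capitals, are the 250 bases before the start for both Per1 and Tef, to show their E-boxes, the same stretch of Per3 for its D-boxes, and 30 bases around the ROR element of Arntl.
Per1, E-box, chr11:69098699-69098948, plus strand: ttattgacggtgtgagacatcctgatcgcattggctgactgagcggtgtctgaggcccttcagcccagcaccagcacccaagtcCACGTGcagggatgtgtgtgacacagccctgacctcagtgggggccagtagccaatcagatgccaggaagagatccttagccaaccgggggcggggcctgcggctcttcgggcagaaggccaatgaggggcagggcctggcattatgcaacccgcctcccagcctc
Per3, D-boxes, chr4:151044666-151044915, minus strand: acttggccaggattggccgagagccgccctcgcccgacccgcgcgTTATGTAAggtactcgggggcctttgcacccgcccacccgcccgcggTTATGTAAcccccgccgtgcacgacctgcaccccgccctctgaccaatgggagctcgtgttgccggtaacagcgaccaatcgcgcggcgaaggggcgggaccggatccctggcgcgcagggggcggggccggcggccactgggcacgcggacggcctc
Tef, E-box, chr15:81811164-81811413, plus strand: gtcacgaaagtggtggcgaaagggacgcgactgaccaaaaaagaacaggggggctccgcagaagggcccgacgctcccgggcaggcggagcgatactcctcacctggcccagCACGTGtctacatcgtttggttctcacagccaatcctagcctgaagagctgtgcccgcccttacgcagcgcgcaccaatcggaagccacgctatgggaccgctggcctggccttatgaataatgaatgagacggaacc
Arntl, ROR element, chr7:113207530-113207559, plus strand: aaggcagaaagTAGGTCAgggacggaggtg
The E-box of Per1 lay at positions -166 to -161 from its first listed start, and the window of its second listed start held none. Tef held an E-box at both listed starts, at -127 to -122 of the first and at -138 to -133 of the second, which is printed. Per3 held 2 D-boxes, at -205 to -198 and -158 to -151. The Arntl match lay at 31 to 37 after its second listed start. Bhlhe41 also held an E-box and Nr1d1 an E-prime box, and the windows of Dbp, Nr1d2 and Npas2 held none of these letters. A match is a description of letters only.

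Library totals ran from 12175804 to 17447367 counts, apart from Pt-CrAT library CrAT12MLFD345 at 12 months with 53157575. At 12 months Crat was 42.4, 64.2 and 81.1 CPM (counts scaled to a common library size) in Pt-CrAT and 54.0, 84.6 and 98.0 CPM in fl/fl, overlapping groups with a log2 fold change of -0.33 (SE 0.27, edgeR quasi-likelihood adjusted p = 0.410). It was 1.04 lower (log2) in Pt-CrAT at 24 months (SE 0.21, adjusted p = 0.177) and 0.61 higher in the libraries labelled Pt-CrAT at 15 months (SE 0.27, adjusted p = 0.581), against the label there. Of the 15064 genes tested by edgeR, 16.4% passed an adjusted p of 0.05 between genotypes at 12 months, and none passed at 15 or at 24 months, where 1249 and 1409 genes had an unadjusted p under 0.05 and DESeq2 called 0 and 6. The 2464 genes called at 12 months became 53 without library CrAT12MLFD328, 391 without CrAT12MLFD337, 408 without Wt12MLFD326 and 1 with only the groups compared in the fit. Pt-CrAT libraries CrAT24Mchow123 and CrAT24Mchow136 at 24 months stood apart in Kap, an androgen-responsive proximal tubule gene, with 4566 and 2853 CPM against 18928 to 28807 in the other 3 of that group. Values without both are given beside the age changes named in Pt-CrAT that passed the test, beside those of Per1 and Per2, and beside the age change of Npas2.

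The clock genes separated the 15-month libraries from most of the others. The mean log2 CPM of the 8 negative limb and output genes minus that of Arntl and Npas2, called the limb index, was 7.57 ± 0.19 (SD, n = 3) in fl/fl and 7.51 ± 0.42 (n = 3) in the libraries labelled Pt-CrAT at 15 months. At 24 months it was 4.99 ± 1.35 (n = 5) in fl/fl and 5.21 ± 1.29 (n = 5) in Pt-CrAT, and at 12 months 4.10 ± 1.10 (n = 3) and 4.67 ± 0.83 (n = 3). The 6 libraries of 15 months ranged from 7.05 to 7.86. At 24 months, Pt-CrAT library CrAT24Mchow136 at 7.23 and fl/fl library Wt24Mchow154 at 7.29 lay within that range, and the other 8 libraries lay between 3.73 and 5.27. Their Arntl and Npas2 were at 6 and 4 counts in CrAT24Mchow136 and 2 and 4 in Wt24Mchow154. The mean log2 CPM of the 8 other genes in Wt24Mchow154, 5.50, was below the lowest of 15 months, 5.79. Dbp, at 62.3 and 53.6 CPM in these libraries, was below the lowest 15-month value, 84.3 CPM. The lowest index, 2.84, belonged to fl/fl library Wt12MLFD326 at 12 months. The index summarises the members and was not tested.

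**Figure D1:**
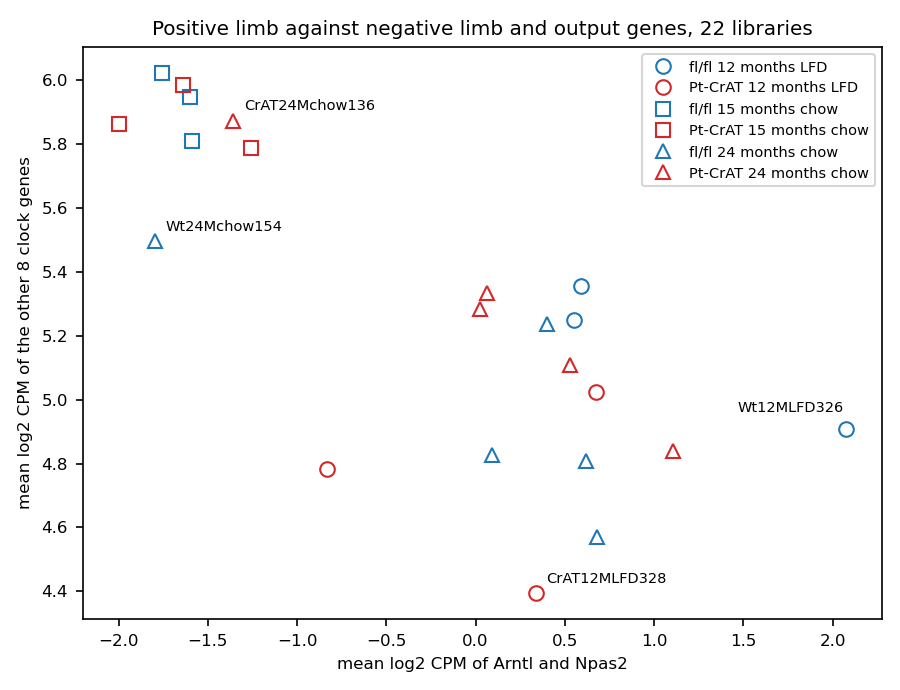
Mean log2 CPM of Arntl and Npas2 (x axis) against mean log2 CPM of the other 8 clock genes (y axis), 1 point per library, with shape for age and colour for genotype. The 6 libraries of 15 months sit at the upper left, with Pt-CrAT library CrAT24Mchow136 of 24 months beside them. The fl/fl library Wt24Mchow154 of 24 months lies at the left but below them.

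**Figure D2:**
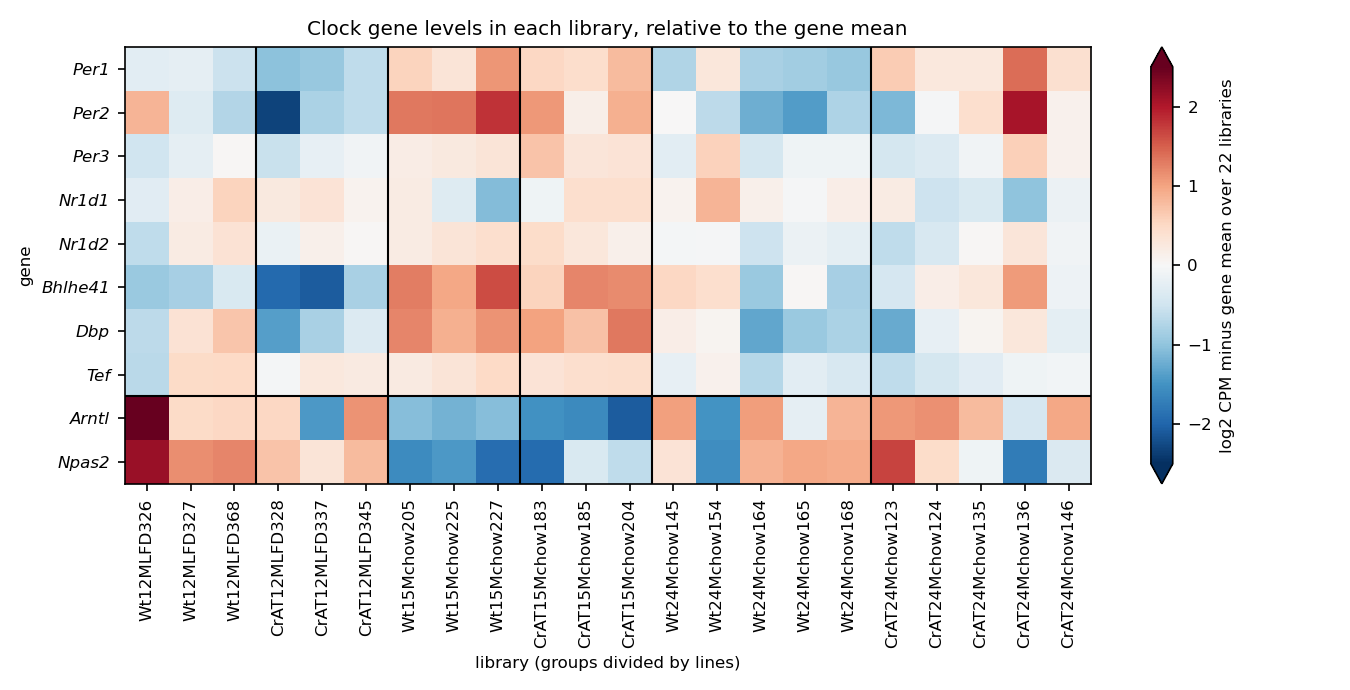
Log2 CPM of each clock gene minus its mean over the 22 libraries, with libraries in columns, groups divided by vertical lines, and the positive limb below the horizontal line. Arntl and Npas2 are low at 15 months, where Dbp and Bhlhe41 are high, and Nr1d1 does not follow the other negative limb genes.

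Between 15 and 24 months in fl/fl, 4 of the 10 members passed the test, all lower at 24 months: Per1, Per2, Bhlhe41 and Dbp. Over all genes tested, 1.3% were called in this comparison and 0.478% were called lower. The members' median log2 fold change was -0.57, beside 0.02 over all genes. The members were chosen with earlier results of these data known, so such shares and medians are no independent comparison with all genes. Between the 15-month libraries labelled Pt-CrAT and the 24-month Pt-CrAT libraries, 3 of 10 members passed, with Dbp and Tef lower and Arntl higher at 24 months, where 11.3% of all genes were called, 5.71% lower and 5.61% higher. Crat went against the label at 15 months, which leaves the labels of both 15-month groups open to doubt, fl/fl included. A difference in age and a difference in genotype therefore cannot be told apart in either comparison of ages taken alone. With the genotype labels set aside, every 15-month library was above every 24-month library in Dbp and in Tef. Dbp was at least 84.3 CPM against at most 62.3, and Tef at least 1451 against at most 1332. The second comparison, with the 15-month libraries labelled Pt-CrAT, is called below the age comparison of the libraries labelled Pt-CrAT. Without libraries CrAT24Mchow123 and CrAT24Mchow136 no member passed there and 2.8% of all genes did, with log2 fold changes of -1.16 for Dbp (adjusted p = 0.0847), -0.67 for Tef (0.108) and 3.11 for Arntl (0.0509). The members' median there was -0.43, beside 0.04 over all genes. The values of 6 members did not overlap between the ages in fl/fl, all lower at 24 months (8.26% of all genes, beside 8.7% higher). In the libraries labelled Pt-CrAT 2 were lower and 1 higher without overlap (11.3% and 10.5% of all genes).

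Per1 (chr11:69095217-69109960, plus strand, GRCm38), a period gene that light and glucocorticoids also induce, had 21.1, 24.8 and 36.1 CPM in fl/fl at 15 months and 8.72, 9.10, 9.58, 9.99 and 20.3 CPM at 24 months. The ages did not overlap, and library Wt24Mchow154 was the highest of the older libraries. The log2 fold change was -1.25 (SE 0.27, adjusted p = 0.0238). In the libraries labelled Pt-CrAT it was 22.8, 24.1 and 29.2 CPM at 15 months and 20.2, 20.2, 22.1, 26.1 and 44.4 CPM at 24 months, with a log2 fold change of 0.07 (SE 0.27, adjusted p = 0.896) that became -0.29 without libraries CrAT24Mchow123 and CrAT24Mchow136.

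Per2 (chr1:91415982-91459324, minus strand), a core inhibitor of the loop, had 21.3, 21.5 and 29.7 CPM in fl/fl at 15 months and 3.16, 3.62, 4.92, 5.37 and 8.59 CPM at 24 months. These groups did not overlap, with a log2 fold change of -2.23 (SE 0.53, adjusted p = 0.0427). In the libraries labelled Pt-CrAT the values were 9.41, 15.7 and 18.0 CPM at 15 months and 3.87, 8.29, 9.10, 11.4 and 35.6 CPM at 24 months, with library CrAT24Mchow136 alone above the younger group and a log2 fold change of -0.07 (SE 0.53, adjusted p = 0.947) that became -0.58 without libraries CrAT24Mchow123 and CrAT24Mchow136. Per3, the third period gene, had log2 fold changes of -0.28 (SE 0.22) in fl/fl and -0.45 (SE 0.21) in the libraries labelled Pt-CrAT, with adjusted p of 0.451 and 0.178.

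Dbp (chr7:45705088-45710203, plus strand), the D-box activator that is itself driven through E-boxes, had 94.4, 111 and 118 CPM in fl/fl at 15 months and 20.6, 26.6, 29.6, 53.6 and 57.1 CPM at 24 months. In the libraries labelled Pt-CrAT it had 84.3, 102 and 127 CPM at 15 months and 21.2, 43.0, 44.1, 53.3 and 62.3 CPM at 24 months. The ages did not overlap in either set. The log2 fold change was -1.52 in fl/fl (SE 0.35, adjusted p = 0.0357) and -1.22 in the libraries labelled Pt-CrAT (SE 0.35, adjusted p = 0.0287). Tef, a related output factor, had 1451, 1547 and 1752 CPM in fl/fl at 15 months and 754, 943, 1026, 1067 and 1332 CPM at 24 months. The libraries labelled Pt-CrAT had 1568, 1656 and 1685 CPM at 15 months and 800, 918, 1015, 1154 and 1173 CPM at 24 months. Again the ages did not overlap, and the log2 fold changes were -0.63 (SE 0.20, adjusted p = 0.0965) and -0.69 (SE 0.20, adjusted p = 0.0296).

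Among the repressors, Bhlhe41 (chr6:145858243-145865558, minus strand) had 5.29, 6.50 and 8.38 CPM in fl/fl at 15 months and 1.36, 1.48, 2.70, 3.58 and 3.84 CPM at 24 months. It fell without overlap, by 1.37 on the log2 scale (SE 0.35, adjusted p = 0.0475). Its log2 fold change in the libraries labelled Pt-CrAT was -0.74 (SE 0.34, adjusted p = 0.165). Nr1d1 (REV-ERB alpha) had 15.2, 26.0 and 37.3 CPM in fl/fl at 15 months and 31.7 to 58.3 CPM at 24 months, with a median of 35.5 CPM. In the libraries labelled Pt-CrAT it was 38.9 ± 7.71 CPM (SD, n = 3) at 15 months and 26.1 ± 7.88 CPM (n = 5) at 24 months, so the fitted changes had opposite signs in fl/fl and the libraries labelled Pt-CrAT. Neither difference passed the test, with log2 fold changes of 0.58 (SE 0.27, adjusted p = 0.216) and -0.58 (SE 0.26, adjusted p = 0.158). Its paralogue Nr1d2 had log2 fold changes of -0.51 (SE 0.19, adjusted p = 0.140) and -0.41 (SE 0.19, adjusted p = 0.170).

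The positive limb was near the limit of detection at 15 months. Arntl (chr7:113207465-113314126, plus strand) gave 3 counts in each fl/fl library and 1 or 2 in each library labelled Pt-CrAT, 0.206 to 0.231 and 0.0804 to 0.151 CPM. At 24 months it had 0.156, 0.463, 1.06, 1.19 and 1.21 CPM in fl/fl and 0.397, 1.01, 1.15, 1.25 and 1.31 CPM in Pt-CrAT. Only fl/fl library Wt24Mchow154 was below the fl/fl 15-month libraries, and the libraries labelled Pt-CrAT did not overlap between the ages. From summed counts, 56 at 24 and 9 at 15 months, the ratio in fl/fl was 3.74 (exact 95% interval 1.84 to 8.60), and in the libraries labelled Pt-CrAT, from 78 and 5 counts, it was 8.08 (3.32 to 25.6), intervals that cover counting error only. The fitted log2 fold changes were 1.85 (SE 0.75, adjusted p = 0.163) in fl/fl and 2.94 (SE 0.82, adjusted p = 0.0224) in the libraries labelled Pt-CrAT.

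Npas2, the Clock paralogue, had 0.231, 0.306 and 0.344 CPM in fl/fl at 15 months and 0.311, 1.33, 1.96, 2.04 and 2.08 CPM at 24 months. Library Wt24Mchow154 was the only older fl/fl library within the younger range. The count ratio was 5.26 in fl/fl (2.89 to 10.5, from 105 and 12 counts) and 2.49 in the libraries labelled Pt-CrAT (1.57 to 4.15, from 106 and 22 counts). These intervals cover counting error only, and library CrAT24Mchow123 alone held 53 of the 106 counts. Neither fitted change passed the test (log2 2.36, SE 0.71, adjusted p = 0.0796, and log2 1.32, SE 0.64, adjusted p = 0.182). Without libraries CrAT24Mchow123 and CrAT24Mchow136 the latter was 0.92 (edgeR adjusted p = 0.385).

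These calls were sensitive to single libraries. In fl/fl no member was called without library Wt15Mchow205 or Wt15Mchow227 of 15 months or library Wt24Mchow164 or Wt24Mchow165 of 24 months, 1 was called without Wt15Mchow225 or Wt24Mchow168, 2 without Wt24Mchow154 and 4 without Wt24Mchow145. The count over all genes, 196 with every library, was 4, 3, 63 and 41 without the first 4 of these, and 53, 246, 68 and 756 without the others in the order named. In the libraries labelled Pt-CrAT none was called without library CrAT15Mchow185 or CrAT15Mchow204 of 15 months, 1 without CrAT15Mchow183, CrAT24Mchow123 or CrAT24Mchow124, 3 without CrAT24Mchow135 or CrAT24Mchow146 and 4 without CrAT24Mchow136, and none without CrAT24Mchow123 and CrAT24Mchow136 together. Over all genes 1705 were called there with every library, 421 without CrAT15Mchow185, 393 without CrAT15Mchow204, 1097 without CrAT24Mchow136 and 1184 without CrAT24Mchow123, and 1386 to 1777 without any of the others. Over these refits the log2 fold change of Per1 in fl/fl stayed between -1.55 and -0.99, and that of Dbp between -1.74 and -1.37. DESeq2 called 5 members in fl/fl, Npas2 in addition, and 731 genes in all, and limma-voom did not call Arntl in the libraries labelled Pt-CrAT. With no filter on low counts Per2 was not called in fl/fl.

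**Figure D3:**
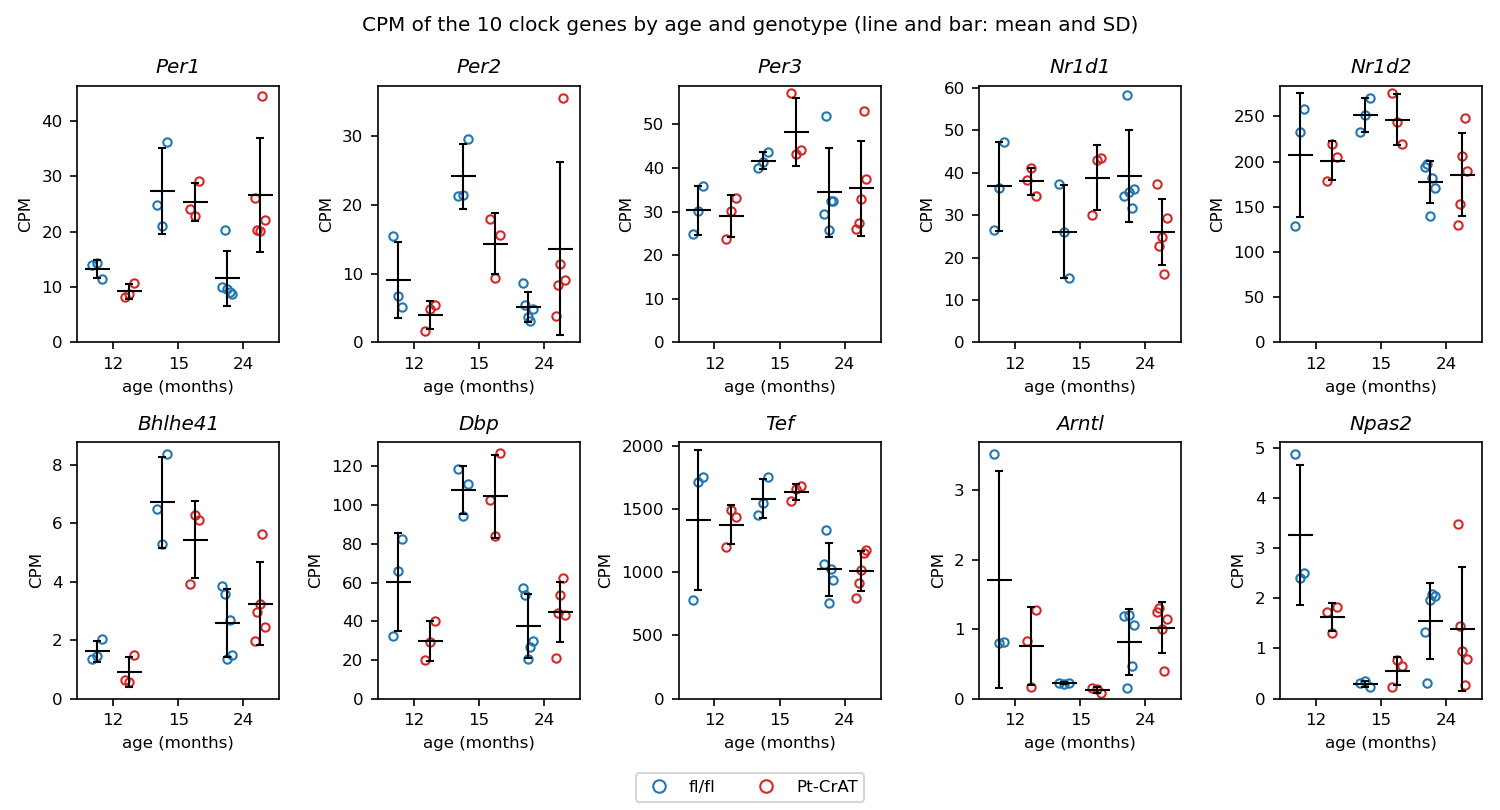
CPM of each clock gene (y axis, from 0) by age in months (x axis), fl/fl in blue and Pt-CrAT in red, with the mean and SD of each group. Dbp is highest in the 6 libraries of 15 months, between 84.3 and 127 CPM, and Arntl and Npas2 have their lowest group means there. The 12-month libraries also differ in diet.

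The levels of other gene groups in the same libraries are given as sums, which were not tested. The summed CPM of 11 glucocorticoid-responsive genes was 1156 to 1336 in fl/fl at 15 months and 826 to 1072 at 24 months, and 1139 to 1225 and 854 to 1270 in the libraries labelled Pt-CrAT, where the ages overlapped. The single genes did not all follow the sum. In fl/fl 1 of the 11 was called higher and 1 lower at 24 months (0.823% and 0.478% of all genes). In the libraries labelled Pt-CrAT 3 were called higher and 0 lower (5.61% and 5.71% of all genes). Their median log2 fold changes were -0.27 and 0.22. The summed CPM of 4 distal convoluted tubule markers was 559 to 584 and 265 to 445 in fl/fl, and 465 to 527 and 240 to 379 in the libraries labelled Pt-CrAT, with no overlap between the ages in either. That of 10 proximal tubule markers was 37121 to 45332 and 33499 to 42078 in fl/fl, which overlapped, and 43910 to 50401 and 9195 to 38377 in the libraries labelled Pt-CrAT. Their part in the clock gene differences was not tested. In whole cortex, fewer cells of a type and less RNA per cell cannot be told apart.

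Between genotypes, no member passed the test at 12, 15 or 24 months. At 12 months 8.41% of all genes were called higher and 7.95% lower. At an unadjusted p under 0.05 there were 1, 0 and 3 members at these ages by edgeR, beside 33.7%, 8.29% and 9.35% of all genes. DESeq2 called 1 member at 12 months, Dbp, where it called 19.9% of all genes, and none at 15 or 24 months, and limma-voom called none at any of them. At 24 months no member was without overlap in either direction (0.737% of all genes higher and 0.797% lower). The comparison of genotypes at 24 months shares its fl/fl libraries with the comparison of ages in fl/fl.

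At 24 months Per1 was higher in value in Pt-CrAT, at 26.6 ± 10.2 CPM (SD, n = 5) against 11.5 ± 4.92 (n = 5). The 5 Pt-CrAT values, 20.2 to 44.4 CPM, met those of fl/fl only through library Wt24Mchow154 at 20.3 CPM, since the other 4 fl/fl libraries had 8.72 to 9.99 CPM. The log2 fold change was 1.21 (SE 0.24, adjusted p = 0.129), and a two-sided exact permutation test of log2 CPM gave p = 0.0238, where 0.00794 is the smallest possible. Without library Wt24Mchow154 the log2 fold change was 1.51 and the adjusted p 0.00488, and over all single omissions the adjusted p ranged from 0.00488 to 0.631. Without libraries CrAT24Mchow123 and CrAT24Mchow136 the log2 fold change was 0.84 (SE 0.23, adjusted p = 0.982). Fkbp5, 1 of 11 glucocorticoid-responsive genes and picked outside the rule for naming genes, had 21.1 CPM in library Wt24Mchow154, the lowest of its group. It had 120 CPM in Pt-CrAT library CrAT24Mchow136, the highest of its group. Without libraries CrAT24Mchow123 and CrAT24Mchow136 its log2 fold change between genotypes was 0.04 (edgeR adjusted p = 0.994). With all libraries 0 of the 11 genes passed between genotypes at 24 months, with a median log2 fold change of 0.14. The part of these genes in the Per1 difference was not tested.

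Per2 at 24 months had a log2 fold change of 1.41 (SE 0.48, adjusted p = 0.461), with library CrAT24Mchow136 at 35.6 CPM and the other 4 Pt-CrAT libraries at 3.87 to 11.4 CPM beside 3.16 to 8.59 CPM in fl/fl. It was 0.89 (SE 0.37, adjusted p = 0.982) without libraries CrAT24Mchow123 and CrAT24Mchow136. Nr1d1 had a log2 fold change of -0.59 (SE 0.23, adjusted p = 0.468), with 16.2 to 37.4 CPM in Pt-CrAT and 31.7 to 58.3 CPM in fl/fl. The other 7 members lay between -0.16 and 0.33.

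At 12 months 9 of the 10 members were lower in value in Pt-CrAT, with a median log2 fold change of -0.59, beside 0.00 over all genes. Dbp had 19.7, 29.1 and 40.2 CPM in Pt-CrAT and 32.5, 65.9 and 82.5 CPM in fl/fl. These groups overlapped, and its log2 fold change was -1.01 (SE 0.40, adjusted p = 0.0845). Per1 and Npas2 did not overlap, both lower in Pt-CrAT (13.8% of all genes), with an exact permutation p of 0.1, the smallest that 3 against 3 allows. Arntl had 0.164, 0.822 and 1.28 CPM in Pt-CrAT and 0.802, 0.814 and 3.52 CPM in fl/fl (adjusted p = 0.251), and its log2 fold change turned from negative to 0.07 without libraries CrAT12MLFD328 and Wt12MLFD326. Library Wt12MLFD326 held the highest Arntl, 3.52 CPM, and the highest Npas2, 4.88 CPM, of all libraries. The summed CPM of 8 adipocyte markers was 353 to 884 in Pt-CrAT and 134 to 276 in fl/fl at this age, and its part in these values was not tested.

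At 15 months the median log2 fold change of the members was -0.04, beside 0.01 over all genes. Dbp had a log2 fold change of -0.04 (SE 0.39, adjusted p = 0.975) and Tef of 0.05 (SE 0.23, adjusted p = 0.951). Per2 and Arntl were lower without overlap in the libraries labelled Pt-CrAT (12.7% of all genes), with log2 fold changes of -0.75 (SE 0.59) and -0.78 (SE 1.09) that did not pass the test. For Arntl the separation was 1 or 2 counts per library against 3 in each fl/fl library.

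**Figure D4:**
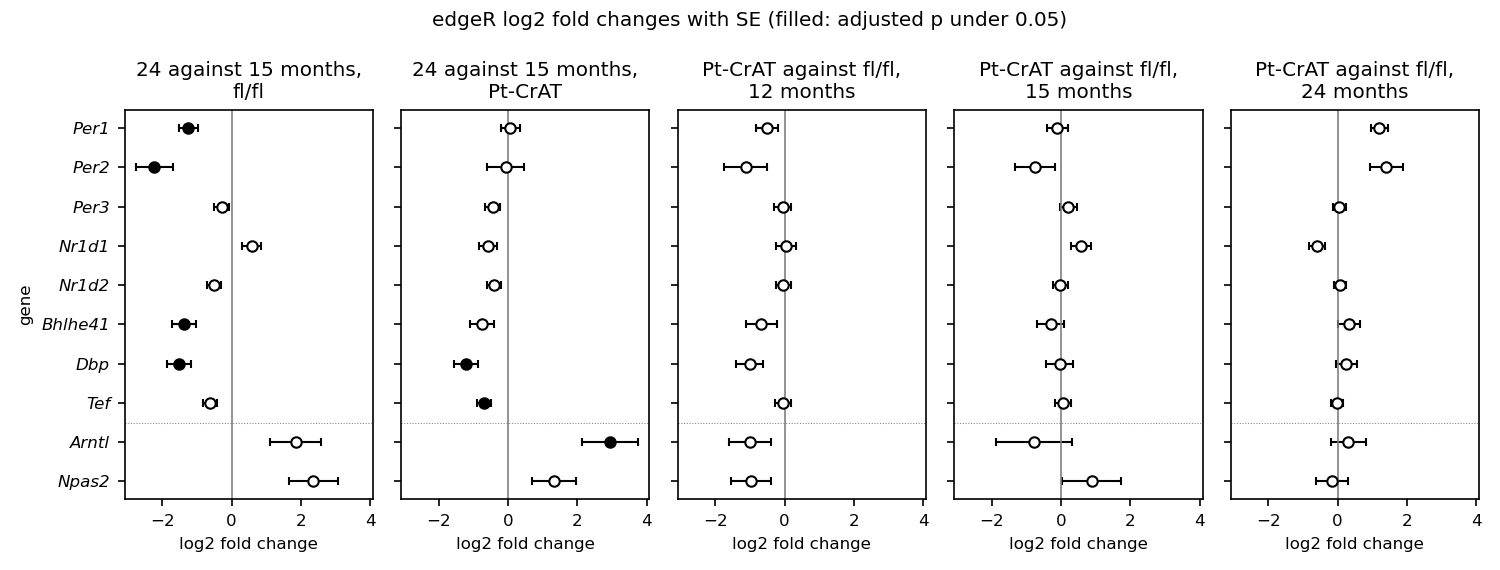
Log2 fold change (x axis) with SE for each clock gene in 5 comparisons, from edgeR, filled where the adjusted p was under 0.05. Filled points are Per1, Per2, Bhlhe41 and Dbp for age in fl/fl and Dbp, Tef and Arntl for age in the libraries labelled Pt-CrAT, and none for genotype.

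Whether the genotype difference itself varied was tested with interaction terms. Both tests rely on the 15-month labels, which Crat went against. The test over 3 settings also compares the 12-month genotype difference with the others, where age and diet change together. For 24 against 15 months no gene passed by edgeR, with 2255 at an unadjusted p under 0.05 and 15 called by DESeq2, and 3 members had an unadjusted p under 0.05: Per2 at 2.16 (SE 0.76), Per1 at 1.31 (SE 0.38) and Nr1d1 at -1.16 (SE 0.38), each with an adjusted p of 0.290. Without libraries CrAT24Mchow123 and CrAT24Mchow136 Per2 was 1.64 and Per1 0.94, each with an adjusted p of 0.465. DESeq2 and limma-voom called no member. Over the 3 settings together, 5.07% of all genes and 1 of 10 members passed. That member was Per1 (adjusted p = 0.0310), with genotype differences of -0.51, -0.11 and 1.21 at 12, 15 and 24 months. The call was lost without fl/fl library Wt24Mchow165 or Wt12MLFD326, or Pt-CrAT library CrAT12MLFD328 or CrAT12MLFD337, with adjusted p of 0.0642, 0.0629, 0.0976 and 0.0818, and without libraries CrAT24Mchow123 and CrAT24Mchow136 together, at 0.0725.

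With group means removed, the members varied together across the 22 libraries. Of 16 pairs between the limbs 15 had a negative Pearson r, with a median of -0.59 and the lowest, -0.88, for Per3 and Npas2. Of 28 pairs within the negative limb and output genes 23 were positive, with a median of 0.50 and the highest, 0.88, for Tef and Nr1d2. All 5 negative pairs included Nr1d1, the lowest at -0.57 with Per2. These r values share their libraries and are a description.

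Arntl was tested against each of the 9 other members, with permutation within groups and adjustment over 9 relations. Pearson r passed for Tef (-0.70), Per3 (-0.65), Nr1d2 (-0.62) and Npas2 (0.63), each with an unadjusted permutation p of 0.00450, 0.00666, 0.00577 and 0.00365 in that order and an adjusted p of 0.0150. Spearman's rho was -0.66, -0.58, -0.63 and 0.53, with adjusted permutation p of 0.0342, 0.0504, 0.0342 and 0.0504. Without the 2 libraries farthest from the median of Arntl, libraries CrAT12MLFD337 and Wt24Mchow154, r was -0.70, -0.57, -0.67 and 0.51 and none passed. Without library CrAT12MLFD337 alone all 4 passed, with adjusted p of 0.0276 to 0.0287. None of the 4 passed without library Wt24Mchow154 (0.0757 to 0.128), Wt12MLFD326 (0.0706 to 0.0772) or CrAT24Mchow136 (0.0576 to 0.0796), so the calls rest on single libraries. Within single ages, none passed at 12 or at 15 months and 1 passed at 24 months, Per3. Such an r with Arntl was not particular to clock genes. Among 9485 genes with a mean of at least 5 CPM, ranked from the highest r, Tef was at place 9421, Per3 at 9307 and Nr1d2 at 9203. Other genes were thus more negative with Arntl than each of these. Npas2 was below that mean and was not ranked. The share of all genes that would pass this test was not determined.

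**Figure D5:**
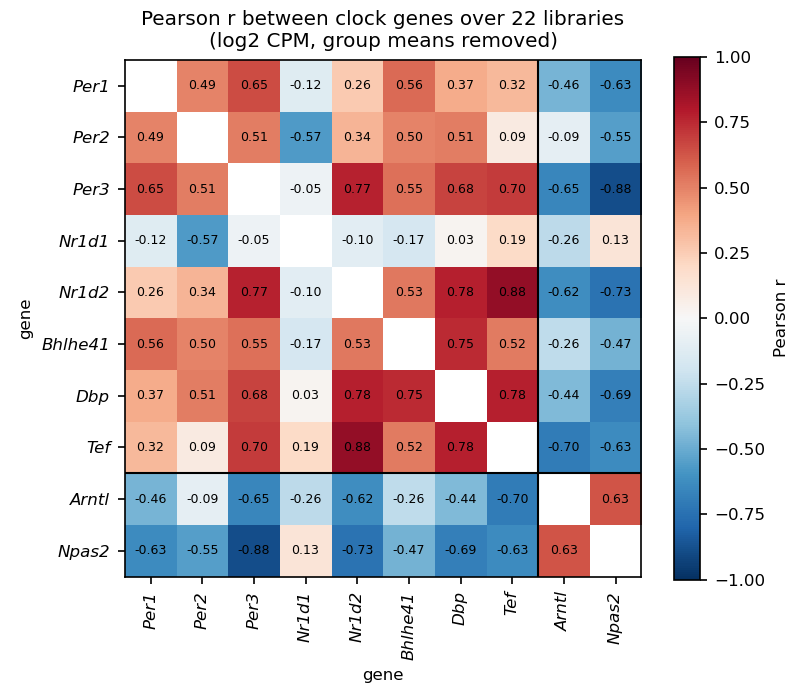
Pearson r of log2 CPM between each pair of clock genes (both axes) over 22 libraries after removing group means, with lines between the limbs. Arntl and Npas2 are negative with nearly all other members, and Nr1d1 stands apart from the other negative limb genes.

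Of 19 other core clock genes 17 were tested. In fl/fl none passed between 15 and 24 months, and in the libraries labelled Pt-CrAT 3 did, beside 11.3% of all genes. Ciart, a repressor of the Clock and Arntl pair, fell by 1.73 on the log2 scale there (SE 0.51, adjusted p = 0.0327), and had a log2 fold change of -1.88 in fl/fl (SE 0.54, adjusted p = 0.0711). Clock, the partner of Arntl, rose by 0.37 (SE 0.12, adjusted p = 0.0444), and Csnk1e, a kinase of the period proteins, by 0.65 (SE 0.15, adjusted p = 0.00706) in these libraries. Without libraries CrAT24Mchow123 and CrAT24Mchow136 the log2 fold changes were -1.53 for Ciart, 0.38 for Clock and 0.52 for Csnk1e, with adjusted p of 0.154, 0.114 and 0.0678. Cry1, a partner of the period proteins, was 12.3 CPM in library CrAT24Mchow136 and 2.33 to 3.50 CPM in the other 4 libraries of its group. Bhlhe40, the paralogue of Bhlhe41, was 140 CPM in that library and 47.6 to 68.4 CPM in the others.

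Of 15 tested genes known as renal clock outputs, none passed between the ages in fl/fl, and in the libraries labelled Pt-CrAT 5 rose and 2 fell, where 5.61% and 5.71% of all genes did. Edn1 (endothelin 1) rose by 1.69 and Aqp2, the vasopressin-regulated water channel, by 1.42 on the log2 scale, while Usp2, a deubiquitinase, fell by 0.79 and Slc6a9, a glycine transporter, fell by 0.71. Without libraries CrAT24Mchow123 and CrAT24Mchow136 the log2 fold changes of these 4 were 1.42, 1.10, -0.68 and -0.52, with adjusted p from 0.0548 to 0.101. The fall in the count over all genes without library CrAT15Mchow185 or CrAT15Mchow204 applies here as well. At 12 months 1 rose and 4 fell in Pt-CrAT (8.41% and 7.95% of all genes), among them Nampt, the rate-limiting enzyme of NAD salvage, by 1.39 and Kcnj1, a potassium channel of the thick limb, by 0.85. The summed CPM of 7 collecting duct markers, Aqp2 among them, was 451 to 683 at 15 and 715 to 1355 at 24 months in the libraries labelled Pt-CrAT. Of these 7 only Aqp2 was called there, and 4 were higher in value at 24 months. The median log2 fold change of the 7 was 0.10. The part of these markers in the values of the output genes was not tested.

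Among 9485 genes with a mean of at least 5 CPM, the 8 most like Arntl across the 22 libraries, by Pearson r with group means removed, were led by Rdh10 (0.88), Aftph (0.87) and Stradb (0.82), and the 8 least like it by Ckmt1 (-0.81), Hdac11 (-0.81) and Wnk4 (-0.80). For Dbp, among 9484 genes, the most like were Sec11c (0.85), Nr1d2 (0.78) and Tef (0.78). These values are a description.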

How the data were processed

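Raw counts per gene were deposited by the authors for 22 libraries of mouse kidney cortex, with a second deposited table of signal values that equal the counts divided by a DESeq2 size factor. The submitters' processing notes name GRCm38, R 3.4.3 and DESeq2 1.18.1. No aligner, counter or strand setting is given in the sources used here. Counts of Per3 (overlapped by Camta1), Dbp (by Sphk2) and Nr1d1 (by Thra) near their 3′ ends are therefore uncertain. Groups came from the titles and genotype labels. Genes were filtered with filterByExpr, scaled by TMM and tested in 1 edgeR 4.0.16 quasi-likelihood model over the 6 groups (R 4.3.3), with Benjamini-Hochberg adjustment over 15064 genes and a threshold of 0.05. CPM uses TMM library sizes, and log2 CPM a prior count of 1. The fit was tested on simulated data. Alternatives were DESeq2 1.42.0, limma-voom 3.58.1, DESeq2 size factors, no filter, only the groups compared, each library left out and, chosen after seeing the data, pairs of libraries left out. Correlations with Arntl used 100000 permutations within groups. There were 2 motif searches, and the ROR letters and the window of the second search were set after the matches of the first had been seen. All members are named, and from the other lists core clock genes and up to 4 genes per comparison with the smallest p. Fkbp5 was named outside this rule. The members and lists were chosen with earlier results of these data known. A result on the other core clock genes between genotypes is not reported here.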

Additional observations from a re-analysis of the deposited data

Results flagged for a closer look

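In 20 pairs of a member and a group of 5 libraries, 5 had their highest library separated from the rest by more than Dixon's 95% critical value. That value flags about 1 in 20 groups of independent, normally distributed values, and these were unlogged CPM. All 5 flags came from libraries Wt24Mchow154 and CrAT24Mchow136, so the pairs are not independent and their count cannot be set against that rate. In fl/fl at 24 months library Wt24Mchow154 stood apart in Per1 (20.3 CPM), Per3 (52.0 CPM) and Nr1d1 (58.3 CPM). In Pt-CrAT at 24 months library CrAT24Mchow136 stood apart in Per1 (44.4 CPM) and Per2 (35.6 CPM). The genotype difference of Per1 varied among the 3 settings by an interaction test (edgeR adjusted p = 0.0310), higher in Pt-CrAT at 24 months and lower in value at 12 months.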

How the results depend on the processing

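No paired analysis was possible because the groups share no replicate number. The count of members called moved under these settings: with DESeq2 it was 1 for genotype at 12 months (Dbp, adjusted p = 0.0343) and 2 for genotype among settings (Per1 and Per2). With only the compared groups in the fit it was 2 for age in fl/fl. Without libraries CrAT24Mchow123 and CrAT24Mchow136, an alternative chosen after seeing the data, it was 0 for age in Pt-CrAT and 0 for genotype among settings. Leaving out 1 library gave 0 to 1 for genotype at 24 months, 0 to 4 for age in fl/fl, 0 to 4 for age in Pt-CrAT, 0 to 2 for genotype among settings and 0 to 6 of the relations with Arntl. Those relations passed for 0 genes at 12 months alone, 0 at 15 months alone, 1 at 24 months alone and 0 without the 2 farthest libraries, and at 15 months alone r turned to 0.50 for Per3, 0.72 for Nr1d2 and -0.47 for Npas2. The limb index of fl/fl at 15 months was 7.31 with a prior count of 2. The fold changes that follow took both signs, and none of them passed the test with all libraries. Without libraries CrAT12MLFD328 and Wt12MLFD326 at 12 months Nr1d1 was -0.14 and Arntl 0.073, and with limma-voom Nr1d2 was 0.017 and Tef 0.046. Without CrAT24Mchow123 and CrAT24Mchow136 Tef was 0.0040 and Per3 -0.087 for genotype at 24 months, and Per1 -0.29 for age in Pt-CrAT. Over single omissions at 12 months Nr1d1 ranged from -0.14 to 0.28, Nr1d2 from -0.29 to 0.16, Tef from -0.33 to 0.16, Per3 from -0.18 to 0.10 and Arntl from -1.77 to 0.056. At 15 months Per1 ranged from -0.28 to 0.14, Nr1d2 from -0.12 to 0.029, Tef from -0.012 to 0.13 and Dbp from -0.22 to 0.080. At 24 months Nr1d2 ranged from -0.069 to 0.17, Tef from -0.11 to 0.10, Npas2 from -0.84 to 0.10 and Per3 from -0.16 to 0.24. For age in Pt-CrAT Per1 ranged from -0.20 to 0.20 and Per2 from -0.81 to 0.17, and for genotype by age Nr1d2 from -0.042 to 0.20, Tef from -0.14 to 0.048 and Per3 from -0.37 to 0.031. The cause of these changes was not tested, beyond the fewer libraries in each refit. The 1 to 3 counts of Arntl per library at 15 months limit its precision.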
